A study of Mus musculus with 4 samples.

Results

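Messenger RNAs of many cytokines are short-lived because proteins bind elements in their 3′ untranslated regions and bring in the enzymes that remove the poly(A) tail, take off the cap and degrade the body of the RNA. Zfp36 (tristetraprolin) and its relatives Zfp36l1 and Zfp36l2 bind AU-rich elements, Zc3h12a (Regnase-1) is an endonuclease that cuts stem-loops, and Rc3h1 and Rc3h2 (Roquin-1 and Roquin-2) bind stem-loops and recruit the CCR4-NOT deadenylase. Btg1 and Btg2 are antiproliferative proteins that bind the deadenylase subunits CNOT7 and CNOT8 and speed up poly(A) removal. Zfp36 and Btg2 are also immediate early genes, switched on quickly by many stimuli. These 8 genes, chosen by symbol from the ZFP36, Regnase, Roquin and BTG families, were all found among the 17300 genes of the table, and all 8 were among the 11864 that entered the test. They were picked with the KO against WT comparison of these libraries already known, so their differences are given as a description, with no test.

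RNA was sequenced from dendritic cells sorted from mouse spleen, in 2 KO libraries and 2 WT libraries, with a stranded total RNA kit for small inputs. The labels give the genotypes only as KO and WT, or as EKO in the KO sample titles and column names. The study's title concerns Siglec-E, an inhibitory sialic acid receptor of myeloid cells. The sources used here give no strain, age, sex or treatment of the animals, do not explain the prefix Allo of every column, and do not say whether samples came from separate animals. The p-values thus cover no more than the library-to-library spread, and that may be technical, at least in WT. Since the numbers in the KO column names differ from those in the sample titles, the names KO A and KO B stand for these libraries. Values are the deposited log2 values, and counts are normalized read counts obtained by undoing the variance-stabilizing transform that these values were taken to be.

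Siglece, which encodes Siglec-E, was at 101 counts (KO A) and 111 counts (KO B), against 859 (WT 1) and 666 (WT 2). The sums of counts ran between 30274060 and 30952251 in KO and between 29002408 and 29377044 in WT. The dendritic cell genes Itgax, Flt3 and Zbtb46 were well detected in every library, with Zbtb46, the least abundant of them, at 3009 and 3063 counts in KO and 4959 and 5370 in WT. KO A stood apart in Y-linked RNA, with 64.5 counts of Ddx3y against 3979 in KO B and 3102 to 3500 in WT. Eif2s3y, also Y-linked, was at 32.2 counts in KO A and 1921 in KO B. The KO libraries are thus unlikely to be repeats of the same RNA, and the sex of the animals may differ within KO. The WT libraries differed in immediate early and red cell RNA. An immediate early list of 18 genes, the members not among them, made up 0.403% (KO A) and 0.463% (KO B) of all counts, against 0.101% (WT 1) and 0.192% (WT 2). In 17 of its 18 genes both KO libraries lay above both WT libraries. Of 12 red cell genes all 12 did so, and they held 0.168% and 0.251% of counts in KO against 0.0163% in WT 1 and 0.0750% in WT 2. Lists of NK, macrophage, monocyte and neutrophil genes also had most of their genes higher in both KO libraries. NK genes (8 of 9 with both KO libraries above) held 0.0430% and 0.0522% in KO and 0.0225% to 0.0256% in WT, and macrophage genes (8 of 8) 0.0370% and 0.0577% in KO and 0.0228% to 0.0281% in WT. Monocyte genes (6 of 7) held 0.239% and 0.253% in KO and 0.140% to 0.154% in WT. Nr4a1 is both in this list and in the immediate early list. Neutrophil genes (7 of 10) held 0.789% to 0.825% in KO, against 0.758% in WT 1 and 0.285% in WT 2. The 9 dendritic cell genes, all 9 lower, held 1.31% to 1.37% in KO and 1.93% to 1.95% in WT. T cell and B cell lists had 2 of 5 and 1 of 6 genes with both KO libraries above. They held 0.0169% to 0.0233% and 0.0632% to 0.0720% in KO, against 0.0178% to 0.0180% and 0.0533% to 0.0580% in WT. In 1 NK gene and 1 T cell gene both KO libraries lay below. Beside the counts of all these lists, both KO libraries lay above both WT libraries in 28.1% of all genes tested, and below in 28.2%. No listed marker was at 0 in all libraries. The part of these lists in the values that follow was not tested, and fewer cells of a type and less RNA per cell cannot be told apart in such samples.

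In 6 of the 8 members both KO libraries lay above both WT libraries, and in 1, Rc3h2, both lay below. Among all genes tested the corresponding shares were 28.1% above and 28.2% below. Rc3h1 was the member whose groups overlapped. The median difference between KO and WT over the 8 members was 0.67 log2 units, beside a median near 0 (-0.0017) over all genes tested.

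**Figure D1:**
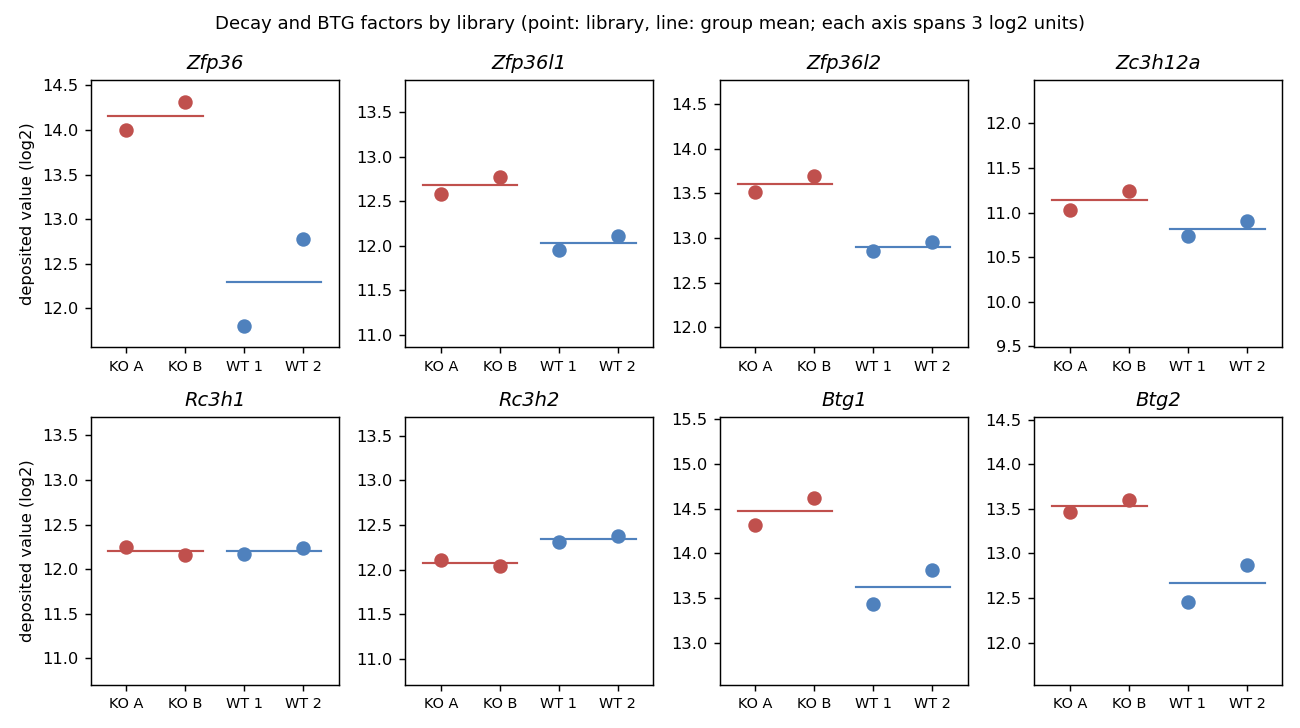
Deposited log2 values (y axis, 3 log2 units in every panel) of the 8 genes in each library (x axis), with KO in red, WT in blue and a line at each group's mean. Zfp36 is the member with the widest gap between groups and the widest gap between the WT libraries, at 11.81 in WT 1 and 12.77 in WT 2, while the Rc3h1 points overlap at 12.16 to 12.25.

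Zfp36 (ENSMUSG00000044786) destabilizes the mRNAs of TNF and other cytokines. Its log2 values were 14.00 (KO A) and 14.32 (KO B), against 11.81 (WT 1) and 12.77 (WT 2). Both KO libraries were high, WT 1 was the lowest, and the lower KO library stood 1.22 above the higher WT library. The KO mean was 14.16 ± 0.23 and the WT mean 12.29 ± 0.68 (SD, n = 2 libraries each), which differ by 1.87 (SE 0.292). In counts these were 15844 and 19882 in KO, against 3080 and 6491 in WT, a 3.73-fold higher mean. The difference was 2.35 against WT 1 alone and 1.38 against WT 2 alone, so its size depends on which WT library is used, although its sign does not.

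Zfp36l1 (ENSMUSG00000021127) and Zfp36l2 (ENSMUSG00000045817) bind the same elements and are best known from lymphocyte development and blood stem cells. Zfp36l1 was at 12.58 and 12.77 in KO, against 11.95 and 12.11 in WT (log2 values), a difference of 0.65 (SE 0.102) and 1.65-fold in mean counts. Zfp36l2 was at 13.51 and 13.70 in KO, against 12.85 and 12.96 in WT, a difference of 0.70 (SE 0.0964) and 1.67-fold in counts. The groups did not overlap in either gene, and the WT libraries lay within 0.16 and 0.11 log2 units of each other, where those of Zfp36 were 0.97 apart. The 2 paralogs had nearly the same profile over the 4 libraries. With each gene's values centred on its own mean, their Euclidean distance was 0.0639, the smallest among the 28 pairs of members, whereas Zfp36 lay 1.35 from Zfp36l1 and 1.32 from Zfp36l2.

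The ZFP36 proteins bind an AU-rich nonamer, TTATTTATT in DNA letters, which was searched on the sense strand of the longest annotated 3′ untranslated region of each gene in GENCODE M21. It was found in 5 of the 8 members, the 3 ZFP36 genes and both Roquin genes, each with 1 copy, and in 8.92% of the 11356 genes tested that have such a region. Long regions hold more matches by length alone, and those of Rc3h1 and Rc3h2 have 7181 and 5331 bases against a median of 1281. The region of Zfp36 has 774 bases, and those of Zfp36l1 and Zfp36l2 have 1835 and 1822. Zc3h12a, Btg1 and Btg2 had no nonamer, and Btg2 had 1 copy of the shorter TATTTAT, a heptamer found in 32.0% of genes. The stretches around the nonamer are shown because these mRNAs of decay factors themselves carry the letters that the ZFP36 proteins read. Capitals mark the nonamer, and the build is GRCm38.

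Zfp36 (chr7:28376950-28376979, minus strand): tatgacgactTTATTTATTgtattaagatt
Zfp36l1 (chr12:80108166-80108195, minus strand): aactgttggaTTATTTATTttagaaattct
Zfp36l2 (chr17:84184913-84184942, minus strand): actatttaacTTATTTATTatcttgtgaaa
Rc3h1 (chr1:160970043-160970072, plus strand): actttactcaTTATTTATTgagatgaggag
Rc3h2 (chr2:37373286-37373315, minus strand): caaagacattTTATTTATTttactctgtaa

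The region before the start of Zfp36 is shown because Zfp36 is known as an immediate early gene, and such genes often carry binding motifs of serum response factor and EGR proteins there. The RefSeq promoter table (GRCm38.p6) held 7 of the 8 members, all but Zfp36l2, and the 250 bases before the start were searched on both strands. The search covered the cyclic AMP response element (CRE) TGACGTCA together with the core that it contains, TGACG. It also covered the EGR motif GCGGGGGCG and the CArG box, which serum response factor binds. The AP-1 motif TGANTCA was found in the promoters of Rc3h1 and Zfp36l1 and in 6.75% of the table. The TATA box TATAAA was found in those of Btg1 and Zfp36l1 and in 12.4% of the table. The GC box GGGCGG was found in all but Rc3h2 and Zfp36l1 and in 32.7% of the table, and in Zfp36 it shares 1 base with the CArG box. Zfp36 had an EGR match 105 to 97 bases before the start and a CArG match 58 to 49 bases before it. Among 32851 promoters of the table, 2.57% held the EGR motif and 1.47% the CArG box, and neither was found in the other 6 members. In the sequence, read in the direction of transcription, capitals mark both matches. A match of letters is not a measured site.

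Zfp36 (chr7:28379229-28379478, minus strand): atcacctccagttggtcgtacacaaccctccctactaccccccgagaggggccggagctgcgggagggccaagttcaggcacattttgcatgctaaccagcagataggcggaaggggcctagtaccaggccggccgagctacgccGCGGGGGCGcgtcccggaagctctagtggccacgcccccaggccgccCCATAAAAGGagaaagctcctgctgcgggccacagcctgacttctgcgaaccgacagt

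Egr1, Egr2 and Srf, which encodes serum response factor, were measured in the same libraries. Egr1 was at 3906 and 5722 counts in KO, against 338 in WT 1 and 876 in WT 2. Egr2 was weaker, with log2 values of 9.29 and 9.50 in KO against 8.71 and 8.81 in WT, a difference of 0.63. Srf was at 1265 and 1478 counts in KO and 1242 and 1469 in WT, with overlapping groups. Whether any of these proteins acts on Zfp36 here was not tested.

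Zc3h12a (ENSMUSG00000042677) cuts Il6, Il12b and other cytokine mRNAs and is itself short-lived. It was at 11.03 and 11.24 in KO, against 10.73 and 10.90 in WT (log2 values), or 1602 and 1930 counts in KO and 1218 and 1422 in WT. The groups did not overlap, but the lower KO library lay only 0.13 above the higher WT library, less than the 0.21 between the KO libraries. The difference was 0.32 (SE 0.111), the smallest among the 6 members that stood higher, and the mean count was 1.34-fold higher.

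Rc3h1 (ENSMUSG00000040423), a RING-type ubiquitin ligase as well as an RNA-binding protein, was at 12.25 and 12.16 in KO, against 12.17 and 12.23 in WT (log2 values). The libraries were intermixed and differed by at most 0.08 within a group, with a difference between groups near 0 (SE 0.0815). Rc3h2 (ENSMUSG00000075376), its paralog, was at 12.11 and 12.05 in KO, against 12.31 and 12.37 in WT. Both KO libraries were low, 0.21 or more below the WT libraries, and the difference was -0.27 (SE 0.0798), 0.813-fold in mean counts. Rc3h2 thus had a narrow spread, 0.04 SD in each group, around a small difference, the reverse of Zfp36.

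**Figure D2:**
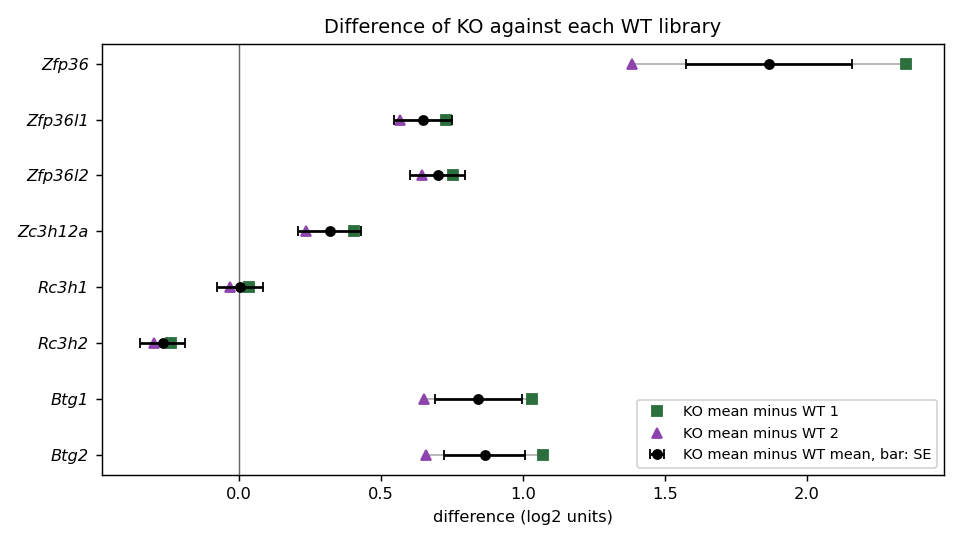
Difference between the KO mean and each WT library or the WT mean (x axis, log2 units) for the 8 genes (y axis). Bars show the SE from the fit across all genes. Zfp36 ranges from 1.38 against WT 2 to 2.35 against WT 1, while Rc3h2 stays between -0.30 and -0.24.

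Btg1 (ENSMUSG00000036478) and Btg2 (ENSMUSG00000020423) restrain cell division, keep T cells quiescent, and in the case of Btg2 respond to p53. Btg1 was at 14.32 and 14.62 in KO, against 13.44 and 13.82 in WT (log2 values), or 19963 and 24594 counts in KO and 10561 and 13903 in WT. Its difference was 0.84 (SE 0.154), 1.82-fold in mean counts. Btg2 was at 13.46 and 13.60 in KO, against 12.46 and 12.87 in WT, or 10744 and 11879 counts in KO and 5111 and 6959 in WT. Its difference was 0.87 (SE 0.142), 1.87-fold in counts. In both genes WT 1 was the lowest library and WT 2 lay 0.38 and 0.41 above it. The difference against WT 2 alone was 0.65 for Btg1 and 0.66 for Btg2, against 1.03 and 1.07 for WT 1 alone. The profiles of these genes were 0.114 apart, the second closest of the 28 pairs.

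The sequences before the starts of Btg1 and Btg2 are shown because both hold the CRE core, while the promoters of the other 5 members that were matched hold none. Btg2 has 1 full CRE, 166 to 159 bases before the start. The full CRE reads the same on both strands and so holds the core once on each. In Btg1 the cores are separate and lie 187 to 183 and 103 to 99 bases before the start. The core was found in 17.8% and the full CRE in 1.55% of promoters of the table. Capitals mark the CRE in Btg2 and the cores in Btg1, where both lie on the other strand and so read CGTCA.

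Btg1 (chr10:96616751-96617000, plus strand): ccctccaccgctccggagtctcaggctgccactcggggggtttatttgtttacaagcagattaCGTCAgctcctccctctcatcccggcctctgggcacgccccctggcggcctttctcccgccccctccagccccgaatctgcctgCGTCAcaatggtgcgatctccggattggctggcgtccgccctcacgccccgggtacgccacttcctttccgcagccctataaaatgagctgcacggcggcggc
Btg2 (chr1:134079156-134079405, minus strand): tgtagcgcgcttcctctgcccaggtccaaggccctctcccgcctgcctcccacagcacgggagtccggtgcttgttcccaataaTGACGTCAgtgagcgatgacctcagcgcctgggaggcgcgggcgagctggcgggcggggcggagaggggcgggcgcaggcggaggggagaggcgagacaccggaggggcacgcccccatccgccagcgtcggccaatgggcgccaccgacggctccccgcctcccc

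Levels of different genes were compared as counts per kilobase of the longest coding transcript in GENCODE M21. By this length Zfp36 led in both KO libraries, at 5679 and 7126 counts per kilobase in KO, against 1104 in WT 1 and 2327 in WT 2. In KO the order was Zfp36 at 6402 ± 1023.5, Btg1 at 4455 ± 655, Btg2 at 4124 ± 292, Zfp36l2 at 3385 ± 325 and Zfp36l1 at 2025 ± 202 (counts per kilobase, SD, n = 2). Zc3h12a followed at 641 ± 84, then Rc3h2 at 426 ± 14 and Rc3h1 at 383 ± 17. Btg1 and Btg2 differed by less than the SD of Btg1, and the same order held in KO A and KO B. In WT the first 4 were Btg1 at 2446 ± 473, Btg2 at 2200 ± 476, Zfp36l2 at 2025 ± 115 and Zfp36 at 1715 ± 864, which did not differ beyond their spread. Zfp36l1 came next at 1231 ± 110, which also lay within the spread of Zfp36, and the others were Rc3h2 at 524 ± 17, Zc3h12a at 479 ± 52 and Rc3h1 at 381 ± 14. Rc3h2 and Zc3h12a did not differ beyond their spread in WT. These orders across families were not taken with another length. Shares within families changed with the length used, as given below, so the orders, the lead of Zfp36 in KO included, may depend on it.

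Within the ZFP36 family the make-up differed between groups. Zfp36 held 53.0% and 55.2% of the family's counts per kilobase in KO, against 26.3% in WT 1 and 40.5% in WT 2. Zfp36l2 held 28.0% and 29.4% in KO, against 46.3% in WT 1 and 36.7% in WT 2. It led the family in WT 1, and Zfp36 led it in WT 2 and in both KO libraries. Zfp36l1 held 16.8% and 17.6% in KO and 22.8% and 27.45% in WT. The family's sum was 10716 and 12909 counts per kilobase in KO, against 4200 and 5741 in WT. With the mean length of all annotated transcripts in place of the longest, Zfp36 held 47.15% in KO and 27.58% in WT, and Zfp36l1 held 29.3% in KO and 40.4% in WT. Zfp36l2 then held 23.6% in KO and 32.1% in WT. The leading member in WT was then Zfp36l1, and in KO Zfp36l1 then stood above Zfp36l2, so these orders depend on the length used. Between Btg1 and Btg2 the split was close to even in every library, with Btg1 at 50.5% and 53.2% in KO and 52.3% and 53.1% in WT. With the other length Btg1 held 65.5% in KO and 66.3% in WT, so the even split also depends on the length used. Rc3h1 held 47.1% and 47.5% of the Roquin sum in KO and 42.1% and 42.2% in WT.

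**Figure D3:**
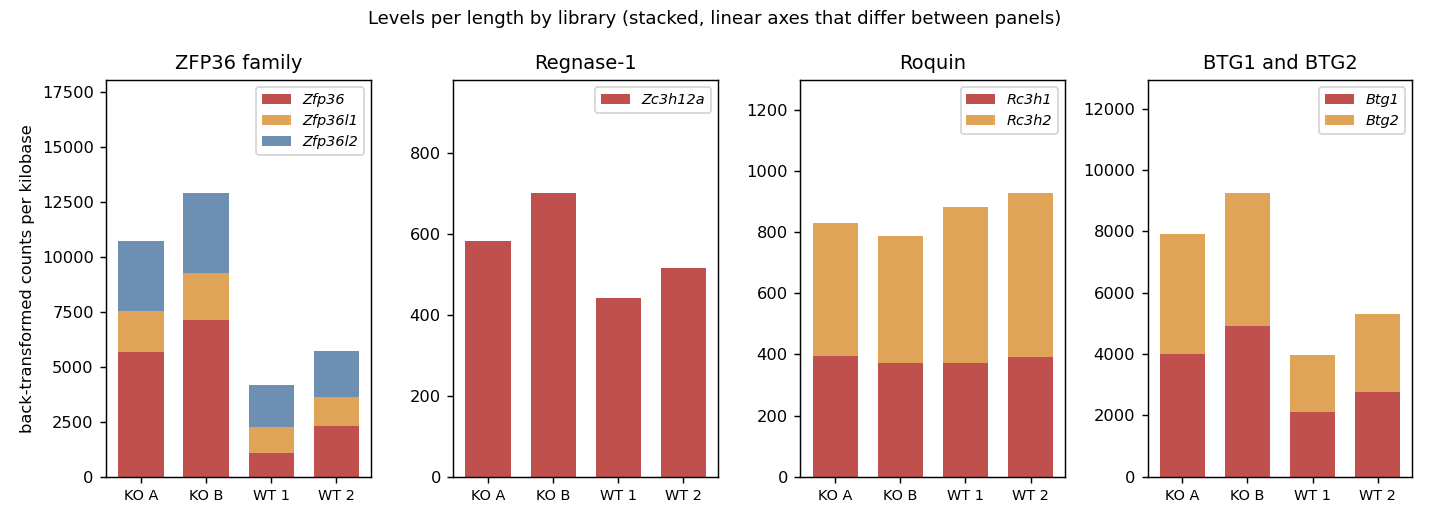
Back-transformed counts per kilobase of the longest coding transcript (y axes, linear and different between panels) in each library (x axis), stacked within each family. The ZFP36 family sums to 10716 and 12909 in KO and to 4200 and 5741 in WT, with Zfp36 at 5679 and 7126 in KO and 1104 and 2327 in WT, while the Roquin sum lies between 786 and 927 in all 4 libraries.

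Genes with the profile most like a member's were taken as the 5 with the smallest Euclidean distance over the 4 libraries, after each gene was centred on its own mean. For Zfp36 these were Ppp1r15a (distance 0.0865), Rgs1 (0.163), Sptb (0.171), Hemgn (0.259) and Nr4a2 (0.273). Ppp1r15a, a stress-induced phosphatase subunit, was at 12.75 and 13.02 in KO, against 10.48 and 11.56 in WT (log2 values). Sptb and Hemgn are known from red cells and their precursors, and Sptb was at 12.57 and 13.09 in KO, against 10.44 and 11.34 in WT. For Zfp36l1 the 5 genes were Abcb6, Egr2, Sidt2, Zfand5 and Hist1h2br, at distances of 0.0194 to 0.0497. For Btg1 they were Abcb4, Clec4d, St3gal6, Slc25a37 and Rhag (0.0438 to 0.0869), and for Btg2 Socs3, Ypel4, H3f3b, Rhag and Grasp (0.0499 to 0.105). Rhag, a red cell membrane protein, stood in both BTG lists, and Slc25a37 is the mitochondrial iron carrier of red cell precursors. Histone genes such as Hist1h2br have near-identical copies, so their reads are uncertain. With 4 libraries many genes share such a profile, and the distances carry no test.

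The machinery that these factors recruit was examined next. Across all genes tested, 4.69% were called higher and 2.23% lower in KO by limma at an adjusted p of 0.05, which is 557 higher and 265 lower. With quantile normalization the calls were 366 higher and 282 lower. Of 16 deadenylation genes, 1 rose, 0 fell and 15 did not pass, with a median difference of -0.06. That is 6.25% called higher, near the share over all genes. Pabpc4, a cytoplasmic poly(A)-binding protein, was at 2419.9 and 2900.4 counts in KO, against 1560.2 and 1759.5 in WT, and rose by 0.55 log2 units (SE 0.107, limma adjusted p = 0.0374). Parn, a poly(A)-specific ribonuclease, was at 10.81 and 10.86 in KO, against 11.08 and 11.07 in WT (log2 values), a difference of -0.24 (SE 0.0829, limma adjusted p = 0.137).

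Of 19 decapping and 5′ decay genes limma called 0 in either direction, with 0 higher and 2 lower at an unadjusted p under 0.05, and their median was -0.04. Dcp2, the decapping enzyme, was at 11.85 and 11.53 in KO, against 12.07 and 12.25 in WT, a difference of -0.47 (SE 0.128, limma adjusted p = 0.0821). Dcps, which breaks down the released cap, differed by -0.25 (limma adjusted p = 0.167). Of 15 exosome and 3′ decay genes limma called 0, with 0 higher and 1 lower at an unadjusted p under 0.05 and a median of -0.05. Exosc5, a subunit of the exosome core, was at 10.23 and 10.24 in KO, against 10.73 and 10.55 in WT, a difference of -0.41 (SE 0.0979, limma adjusted p = 0.0591). Skic3, a scaffold of the Ski complex, differed by -0.24 (limma adjusted p = 0.215).

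Among other members of the 4 families, 5 of 8 entered the test and limma called 0, with 2 higher and 1 lower at an unadjusted p under 0.05. Zc3h12d, a Regnase relative, was at 11.41 and 11.46 in KO, against 11.69 and 11.86 in WT, a difference of -0.34 (SE 0.0930, limma adjusted p = 0.0804). Tob2, of the BTG/TOB family, differed by 0.25 (limma adjusted p = 0.145). Among 13 other RNA-binding proteins 1 rose, 0 fell and 12 did not pass. That is 7.69% called higher, beside 4.69% over all genes tested. Ythdf1, a reader of N6-methyladenosine, was at 11.11 and 11.18 in KO, against 10.69 and 10.79 in WT, and rose by 0.40 (SE 0.0889, limma adjusted p = 0.0492, just under the threshold). Arid5a, which protects Il6 mRNA against Regnase-1, was at 11.84 and 12.01 in KO, against 11.33 and 11.58 in WT, a difference of 0.47 (SE 0.115, limma adjusted p = 0.0620).

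Of 12 partners and regulators, 2 rose, 0 fell and 10 did not pass, with a median of 0.18. That is 16.7% called higher, beside 4.69% over all genes tested. At an unadjusted p under 0.05 in limma, 6 were higher and 0 lower. ZFP36 is inactivated by phosphorylation through p38 and MK2 and reactivated by protein phosphatase 2A. Dusp1, the phosphatase that switches p38 off, was at 13.47 and 13.81 in KO, against 10.57 in WT 1 and 12.13 in WT 2, and rose by 2.29 (SE 0.451, limma adjusted p = 0.0389). Its own 3′ untranslated region holds 2 copies of the nonamer. WT 1 was the lowest library for Dusp1, as it was for the immediate early list, whose part in its values was not tested. Ppp2ca, the catalytic subunit of protein phosphatase 2A, was at 13.02 and 13.05 in KO, against 12.28 and 12.63 in WT, and rose by 0.58 (SE 0.123, limma adjusted p = 0.0451).

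Cytokine, chemokine and NF-kB feedback genes stood among the known target mRNAs of the ZFP36, Regnase and Roquin factors that rose in KO. Of 29 targets listed, 22 entered the test, of which 11 rose, 0 fell and 11 did not pass, and their median difference was 0.62. That is 50% called higher, beside 4.69% over all genes tested. Cxcl2 is among the 11 that rose, though its WT mean was below the level at which genes entered the test. The list was drawn up with earlier results of these libraries known, and some of its genes are also immediate early genes, so its count is not independent evidence. Ptgs2, the inducible cyclooxygenase, was at 1432 and 1796 counts in KO, against 88.9 in WT 1 and 229 in WT 2, and rose by 1.93 log2 units (SE 0.173, limma adjusted p = 0.0147). Ccl3, a chemokine of activated myeloid cells, was at 1426 and 1733 counts in KO, against 101 and 276 in WT, and rose by 1.82 (SE 0.183, limma adjusted p = 0.0147). Ccl4, a related chemokine, was at 1329 and 1296 counts in KO, against 72.3 and 370 in WT, and rose by 1.59 (SE 0.258, limma adjusted p = 0.0258). In each of these genes WT 1 was the lowest library, as it was for the immediate early list, at 0.101% of counts against 0.192% in WT 2. The monocyte list, whose cells also express many of these targets, held 0.239% and 0.253% in KO and 0.140% and 0.154% in WT. It shares Nr4a1 with the immediate early list. NK, macrophage, neutrophil and red cell lists also had most of their genes higher in both KO libraries, and the dendritic cell list had all of its genes lower. The part of any of these lists in the target values was not tested.

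Il1b, an inflammatory cytokine, was at 6868 and 11353 counts in KO, against 2423 and 3671 in WT, and rose by 1.42 (SE 0.25, limma adjusted p = 0.0303). The neutrophil chemokine gene Cxcl2 was at 703 and 415 counts in KO, against 4.31 in WT 1 and 115 in WT 2, and rose by 1.37 (SE 0.256, limma adjusted p = 0.0342). Its WT mean of 8.60 log2 units lay less than 1 unit above the lowest value of 8.0363. Cxcl2 thus entered the test only through its KO mean of 9.97. Tnf, the best known ZFP36 target, was at 780 counts in each KO library, against 437 and 497 in WT, and rose by 0.45 (SE 0.0903, limma adjusted p = 0.0404), 1.67-fold in mean counts. Nfkbiz and Nfkbid, nuclear IkB proteins, rose by 0.999 (SE 0.139, limma adjusted p = 0.0200) and 1.01 (SE 0.166, limma adjusted p = 0.0263). Ets1, a transcription factor, rose by 0.77 (SE 0.0970, limma adjusted p = 0.0182). Pim1 and Plk3, named after their values were seen, completed the 11, and Fos, at 19610 and 22830 counts in KO against 652 and 5975 in WT, did not pass (limma adjusted p = 0.0567).

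Il6 and Il10 were below the level at which genes entered the test. Il6 was at 121 and 122 counts in KO, against 8.79 in WT 1 and 41.8 in WT 2, and Il10 at 35.4 and 17.7 counts in KO, against 10.8 and 7.18 in WT. Of the targets with the nonamer, 5 of 9 tested rose, Cxcl2 among them, and of those without it 6 of 13 rose. The median difference was 1.37 log2 units over the targets with the nonamer and 0.48 over those without it, with no test. Of the targets with the nonamer, Lif as well as Cxcl2 entered the test only through its KO mean. Lif, named after its values were seen, had means of 9.27 in KO and 8.98 in WT and did not pass. Among all genes tested with an annotated 3′ untranslated region, 5.63% of those with the nonamer and 4.57% of those without it were called higher, and both sets had a median difference of -0.001. The site in Tnf is shown with those of Cxcl2 and Ptgs2 as targets that carry the same letters as the ZFP36 genes themselves. Capitals mark the first nonamer, Tnf having 5 in all, Cxcl2 4 and Ptgs2 1.

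Tnf (chr17:35199688-35199717, minus strand): tttgcacttaTTATTTATTatttatttatt
Cxcl2 (chr5:90905316-90905345, plus strand): gagagttcacTTATTTATTtatctatgtat
Ptgs2 (chr1:150105790-150105819, plus strand): ctgaccatatTTATTTATTtatgtgaagaa

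**Figure D4:**
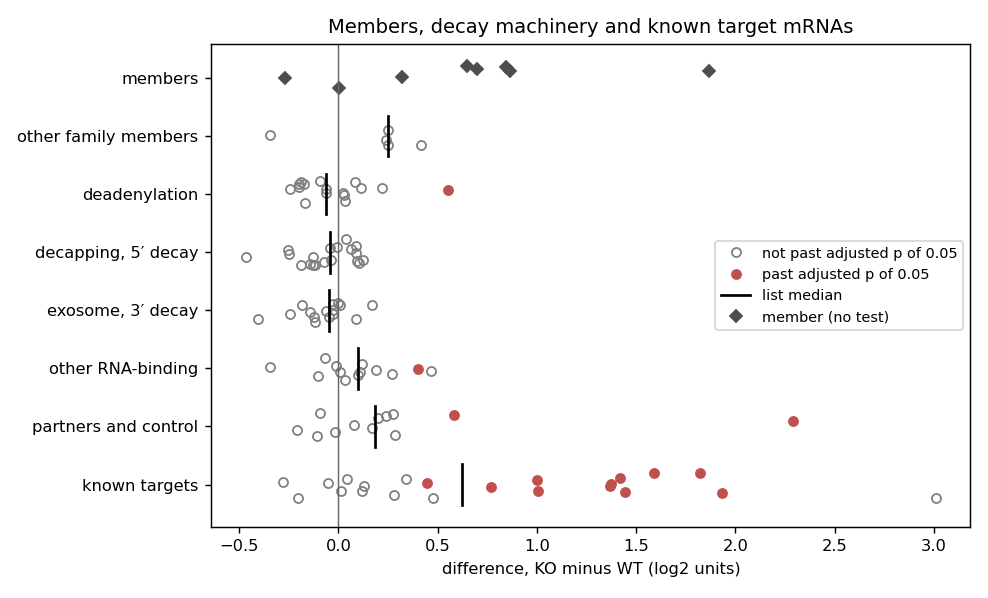
Difference between KO and WT (x axis, log2 units) for the 8 members (diamonds, no test) and for the genes of 7 lists (circles, y axis), 1 point a gene, with filled points past an adjusted p of 0.05 by limma and a black line at each list's median. Points are spread vertically only to be seen. The decay machinery lies around 0, with medians of -0.06, -0.04 and -0.05, while 11 of 22 known targets are filled and lie to the right. Over all genes tested 4.69% were called higher.

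Leaving out a KO library ended all calls named here. Without KO A limma called 0 genes (2508 at an unadjusted p under 0.05). Without KO B it called 3 (2448 at an unadjusted p under 0.05), all lower in KO and none of them in the pathway lists. Ythdf1 and Tnf also missed the threshold without WT 1 and without WT 2, and Pabpc4 and Ppp2ca without WT 1. With quantile normalization Pabpc4, Ythdf1, Dusp1, Ppp2ca and Plk3 missed it. On log2 of the count plus 1 so did Ythdf1, Dusp1, Ppp2ca, Cxcl2, Ccl4 and Plk3, and with no filter Ythdf1. With the filter of 2 log2 units Cxcl2, Ccl4 and Plk3 were too low to be tested, and 12 pathway genes were called. The difference of Arid5a was 0.34 without WT 1 and 0.59 without WT 2, and that of Fos 1.74 and 4.28. A fit with 1 library left in a group takes its spread from the other group alone. Calls gained or ended in such fits thus also depend on which spread was left.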

How the data were processed

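Dendritic cells sorted from mouse spleen gave 4 total RNA libraries, 2 KO and 2 WT. The authors deposited log2 values, taken to be a variance-stabilizing transform of scaled read counts from the table's own name and from the floor that all libraries share. Salmon 1.10.1, DESeq2 and build GRCm39 are named in the submitters' processing notes with no role or order, and the sources used here name no annotation. The transform was undone from the lowest value that all libraries share, 8.0363, to give normalized counts, whose sums do not give depth in reads. The log2 scale understates the fold of weakly expressed genes. Symbols were taken from a supplied mouse table pairing Ensembl identifiers with names (17289 of 17300 matched).

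Genes whose mean exceeded that lowest value by 1 log2 unit or more were fitted in limma 3.58.1 under R 4.3.3, with an intensity trend, a two-sided test, Benjamini-Hochberg adjustment over all 11864 genes and a threshold of 0.05. The procedure was tested on simulated data. The members, the gene lists and the tests were chosen with earlier results of these data known. All members are named. From each of the 7 pathway lists up to 6 genes past the threshold are named, smallest p first, or, where fewer than 2 passed, the 2 with the smallest p. 7 targets are named whatever their values. Alternatives were other filters, quantile normalization, no trend, log2 of the count plus 1, and leaving out each library. Lengths and 3′ untranslated regions came from GENCODE M21 (GRCm38) and promoters from RefSeq (GRCm38.p6), an older build than GRCm39, so coordinates are those of the reference and not of the authors' files.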

Additional observations from a re-analysis of the deposited data

How the results depend on the processing

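The number of genes called was 822, and 858 with no filter, 710 with the filter of 2 log2 units, 648 with quantile normalization, 780 with no intensity trend and 681 on log2 of the count plus 1. Leaving out each library gave between 0 and 820 calls. Of the listed pathway genes 15 were called, and 9 on log2 of the count plus 1, the only one of the alternatives other than leaving out a library that moved this count by over 1.5 times. Leaving out each library gave between 0 and 17. The cause was not tested. With the filter of 2 log2 units 12 of them were called, since Cxcl2, Ccl4 and Plk3 were not tested. In all alternatives 0 of the listed pathway genes were called lower. The count of 6 members with every KO library above every WT library was 6 in the alternatives run, except 7 without KO B, which added Rc3h1. The member differences moved by less than the spread between replicates under quantile normalization and on log2 of the count plus 1, except Rc3h2, at -0.32 with quantile normalization. The share of Zfp36 in its family in KO was 54.1%, and 47.15% with the mean length of all annotated transcripts. Among the members and the named pathway genes that entered the test, none changed sign under the alternatives run except Rc3h1, whose difference near 0 was -0.04 with quantile normalization, -0.04 without KO A and -0.03 without WT 1. Mapkapk2, Mapk14 and Lif were not followed through the alternatives. No paired analysis was possible because the numbers in the KO column names differ from those in the KO sample titles. With 2 libraries in a group, an arm left with 1 library is assumed to vary like the others.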
